A study of Mus musculus with 110 samples.

Results

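Tissue RNA of R6/2 mice that had received the ZFP, a zinc-finger protein repressor of mutant huntingtin, was compared with tissue RNA of R6/2 mice that had received Delta, the control. The comparison uses the n_ZFP_n_Rpl set of the series and its Input fraction, which is the RNA taken before the ribosome pulldown. Its members were chosen by their labels and comprise 8 of the 110 libraries of the series, 4 with the ZFP (condition RZ) and 4 with Delta (condition RD). The same set and fraction also hold 4 libraries of NCAR mice with Delta (ND) and 4 of NCAR mice with the ZFP (NZ), so that 16 libraries of 4 conditions were fitted together.

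The study lowered mutant huntingtin by ZFPs in astrocytes or in neurons and sequenced ribosome-bound RNA (IP) and tissue RNA of mice carrying an HA ribosome tag (RiboTag). All mice, the Delta controls and the NCAR mice included, received an AAV and carry the strain label R6/2 (Jax #006494). R6/2 is a transgenic mouse model of Huntington's disease, and the labels do not spell out NCAR. The labels give neurons as the cell type of the n_ZFP_n_Rpl set, but they state neither which cell type expressed the ZFP in it, nor the promoter, the tissue, the age, or whether a library is 1 animal or a pool. All p-values therefore measure the spread between these samples, which may be technical.

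Huntington's disease is caused by an expanded CAG repeat in the huntingtin gene, and the striatum is the brain region hit hardest. Its projection neurons, also called medium spiny neurons, receive dopamine through D1 or D2 receptors and answer through cyclic AMP, DARPP-32 and phosphodiesterase 10A. Transcripts of these signalling proteins are lost early in mouse models, while many transcripts shared by all neurons are spared. Striatal interneurons, among them cholinergic, somatostatin and parvalbumin cells, form the minority of striatal neurons and shape projection neuron output.

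Reads assigned to genes numbered 26.5 to 35 M per library in the Delta group and 26.7 to 31.5 M in the ZFP group. Reads of Rn45s, the ribosomal RNA precursor, made up 0.05 to 0.0733% of the Delta libraries and 0.0449 to 0.0672% of the ZFP libraries. In a principal component analysis of the 16 libraries the first component held 48.5% of the variance. On it the RD libraries lay at 25.9 to 30.8 and the RZ libraries at 11.9 to 19.9. The ND libraries lay at -29.8 to -19.8 and the NZ libraries at -21.95 to -15.61. The RD and RZ libraries did not overlap on it, whereas the ND and NZ libraries did.

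The targeted human transgene was not analysed here. Htt, the mouse huntingtin gene, was at 400.9, 403.5, 401.3 and 392.4 CPM (a gene's reads per M reads of its library) in RD libraries 1 to 4 and at 384.5, 380.1, 379.7 and 374.5 CPM in RZ libraries 1 to 4. All 4 RZ libraries lay below all 4 RD libraries, yet the log2 fold change of -0.07 ± 0.04 (standard error) did not pass the threshold (adjusted p = 0.35, edgeR's quasi-likelihood test). Here and below, fold changes are log2 values of RZ over RD with their standard error (n = 4 and 4), on which 1 is a 2-fold difference, and a gene is called at an adjusted p under 0.05. Rpl22, the gene that RiboTag mice carry with an HA tag, varied widely among the RD libraries, at 582.8, 287.8, 207.1 and 229.9 CPM. In the RZ libraries Rpl22 was at 612.9, 759.1, 559.9 and 659.7 CPM. The groups overlapped through RD library 1, and the difference of 0.99 ± 0.28 was not called (adjusted p = 0.0762), whereas it was without RD library 1 (1.42, adjusted p = 0.00148) and with DESeq2 (adjusted p = 0.0288).

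Of 15821 genes tested, 394 (2.49%) were higher and 131 (0.828%) were lower in RZ than in RD, which is 3.32% of all genes tested. Most differences were small, as the median of the higher genes was 0.39 and that of the lower genes -0.31, against 0.00 over all genes tested. Only 38 of the higher and 5 of the lower genes changed by more than 2-fold. Among higher genes with a mean of at least 5 CPM and no overlap between the groups, the largest included the channels Ryr1 and Scn4b, the transcription factor Egr1 and the acetylcholine enzyme Chat, while the lower genes included the transcription elongation factor-like gene Tceal6, the nucleosome assembly gene Nap1l3 and the phospholipase Pla2g4e. The counts moved with single libraries. They fell to 171 higher and 45 lower without RZ library 2, 203 and 57 without RD library 4, 235 and 71 without RD library 3, and 242 and 66 without RD library 2. Without RZ library 1 they were 242 and 94, and without RZ library 3 they were 310 and 72. Among the 15 highest genes named by rule, 12 kept their call under all 13 alternatives tried, and Ryr1, Ptpn7 and Myo3b did not. Among the 15 lowest, 14 kept it and Lyplal1 did not.

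The receptors and signalling proteins of projection neurons had the highest median of 28 lists. Gene groups looked at after their members had been seen among the called genes are not among these 28. Of those groups, the other genes of cholinergic neurons had a higher median, 0.83. Of the 20 projection neuron receptors and signalling genes, 10 were higher in RZ, 0 were lower and 10 did not pass the test. The median was 0.56, and 16 of the 20 showed no overlap between the 4 RZ and 4 RD libraries in the higher direction, which 7.4% of all genes tested did (5.61% in the lower direction). Over all genes tested 2.49% were called higher and 0.828% lower, the shares to set beside this and every later list count. Ppp1r1b, which encodes DARPP-32, was at 234.8, 238.7, 257.0 and 259.5 CPM in RD and at 514.3, 425.5, 351.1 and 343.0 CPM in RZ. Each RZ library was above each RD library, with RZ libraries 1 and 2 the highest, and the change was 0.72 ± 0.16 (adjusted p = 0.0199). The Ppp1r1b call was lost without RZ library 1 or 2, without any 1 of the RD libraries and under the replicate block (adjusted p up to 0.0715). Pde10a, the phosphodiesterase that breaks down cyclic nucleotides in these cells, was at 509.6, 451.3, 460.1 and 449.9 CPM in RD and 1036, 890.8, 712.4 and 672.1 CPM in RZ. Its groups did not overlap either, and it rose by 0.82 ± 0.15 (adjusted p = 0.00655).

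Adora2a, the adenosine receptor of the D2 receptor-bearing cells, was at 70.54, 54.58, 69.88 and 62.53 CPM in RD and at 165.5, 134.8, 96.72 and 90.31 CPM in RZ. It rose by 0.92 ± 0.20 (adjusted p = 0.0189) with no overlap, a call lost without RD library 2 or 4, without RZ library 1 or 2, under the replicate block and with only the 2 groups in the fit (adjusted p up to 0.0733). Rasgrp2, an exchange factor for the GTPase Rap1, was at 30.74, 26.36, 26.15 and 28.92 CPM in RD and at 72.6, 66.62, 50.17 and 52.55 CPM in RZ, and was the highest member at 1.11 ± 0.17 (adjusted p = 0.00292). The other called members were the regulator of G protein signalling Rgs9 (0.75 ± 0.17), the small GTPase Rasd2 (0.69 ± 0.16), the muscarinic receptor Chrm4 (0.58 ± 0.09), the orphan receptor Gpr52 (0.56 ± 0.13), the adenylyl cyclase Adcy5 (0.53 ± 0.13) and the inositol trisphosphate receptor Itpr1 (0.32 ± 0.08).

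The dopamine receptors themselves were not called by edgeR's quasi-likelihood test on the 16 libraries, while DESeq2 called both (adjusted p = 0.003 for Drd1a and 0.0143 for Drd2), and the fit of only the 2 groups called Drd1a. Drd1a, listed under this older symbol of Drd1, was at 121.1, 111.2, 111.0 and 114.5 CPM in RD and at 199.0, 183.4, 157.6 and 146.3 CPM in RZ, without overlap, at 0.58 ± 0.16 (adjusted p = 0.0629). Drd2 was at 32.04, 24.34, 29.1 and 29.86 CPM in RD and at 57.7, 44.43, 35.19 and 34.38 CPM in RZ, again without overlap, at 0.57 ± 0.18 (adjusted p = 0.11). The member with a negative value was Arpp21, a cyclic AMP-regulated phosphoprotein, at -0.42 ± 0.12 (adjusted p = 0.0738). Its RD libraries held 508.0, 485.2, 500.7 and 457.8 CPM and its RZ libraries 423.3, 342.4, 372.4 and 324.0 CPM, with no overlap in that direction. Arpp21 was called lower with the ZFP in 3 other comparisons, at -1.17 in NCAR tissue RNA, -0.99 in the IP of the same set and -0.75 in the tissue RNA of the n_ZFP_a_Rpl set. Over the whole list of projection neuron receptors and signalling genes, DESeq2 called 13 higher and 1 lower in RZ than in RD.

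The count of 10 projection neuron genes depended on single libraries. It was 3 without RD library 4, RZ library 1 or RZ library 2, 4 without RD library 2 or 3, 6 without RD library 1, 9 without RZ library 3 and 10 without RZ library 4, while the list's median stayed between 0.42 and 0.63. The RZ libraries were also spread in a common order for this list, as RZ library 1 was the highest of the 4 for 19 of the 20 genes and RZ library 4 the lowest for 15. The summed level of the list was 8666, 7558, 6617 and 6299 CPM in RZ libraries 1 to 4 and 5286 to 5712 CPM in the RD libraries. Summed markers of cortical excitatory neurons were lowest in RZ library 1, at 1251 CPM against 1417 to 1632 CPM in the other RZ libraries and 1273 to 1502 CPM in the RD libraries. Their part in the spread was not tested. In tissue RNA, fewer cells of a type and less RNA per cell cannot be told apart.

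Of 14 channel genes of projection neurons, 5 were higher, 0 were lower and 9 did not pass, with a median of 0.34. Scn4b, the sodium channel subunit that serves resurgent current in these cells, was at 109.1, 111.4, 115.2 and 118.2 CPM in RD and at 413.7, 383.1, 256.3 and 235.0 CPM in RZ. All 4 RZ libraries lay far above the narrow RD range, and Scn4b rose by 1.51 ± 0.20 (adjusted p = 0.000946). The RZ level was still below that of the 4 ND libraries, at 1023 to 1760 CPM. Ryr1, a calcium release channel, was at 6.788, 7.709, 5.515 and 6.498 CPM in RD and at 26.59, 24.94, 19.18 and 9.718 CPM in RZ. RZ library 4 was the lowest of its group by a wide margin but did not overlap with RD, and the change was 1.59 ± 0.31 (adjusted p = 0.0126, and 0.0511 without RZ library 2). The potassium channels Kcnh4 (1.04 ± 0.16), Kcnk2 (0.45 ± 0.10) and Kcnj4 (0.33 ± 0.08) were the other members called. The count of 5 was 2 without RZ library 2 and 3 without RZ library 1 or any 1 of the RD libraries.

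Among 7 neuropeptide genes of projection neurons only Penk, the enkephalin precursor, was called. It was at 174.7, 167.7, 182.9 and 178.8 CPM in RD and at 403.4, 351.6, 283.4 and 240.9 CPM in RZ, a rise of 0.86 ± 0.16 without overlap (adjusted p = 0.00707), and at 774 to 1328 CPM in ND. The dynorphin precursor Pdyn was at 0.63 ± 0.19 (adjusted p = 0.0956) and the substance P precursor Tac1 at 0.31 ± 0.13 (adjusted p = 0.236). With only the 2 groups in the fit both were called, and DESeq2 called Pdyn (adjusted p = 0.00822). Of 14 transcription factors of these neurons, 2 were called, the zinc finger factor Egr3 at 0.51 ± 0.13 and Bcl11b, which is needed for projection neuron differentiation, at 0.45 ± 0.12 (adjusted p = 0.0441 and 0.0458). Both calls were lost without RD library 2, 3 or 4 and without RZ library 1 or 2.

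**Figure D1:**
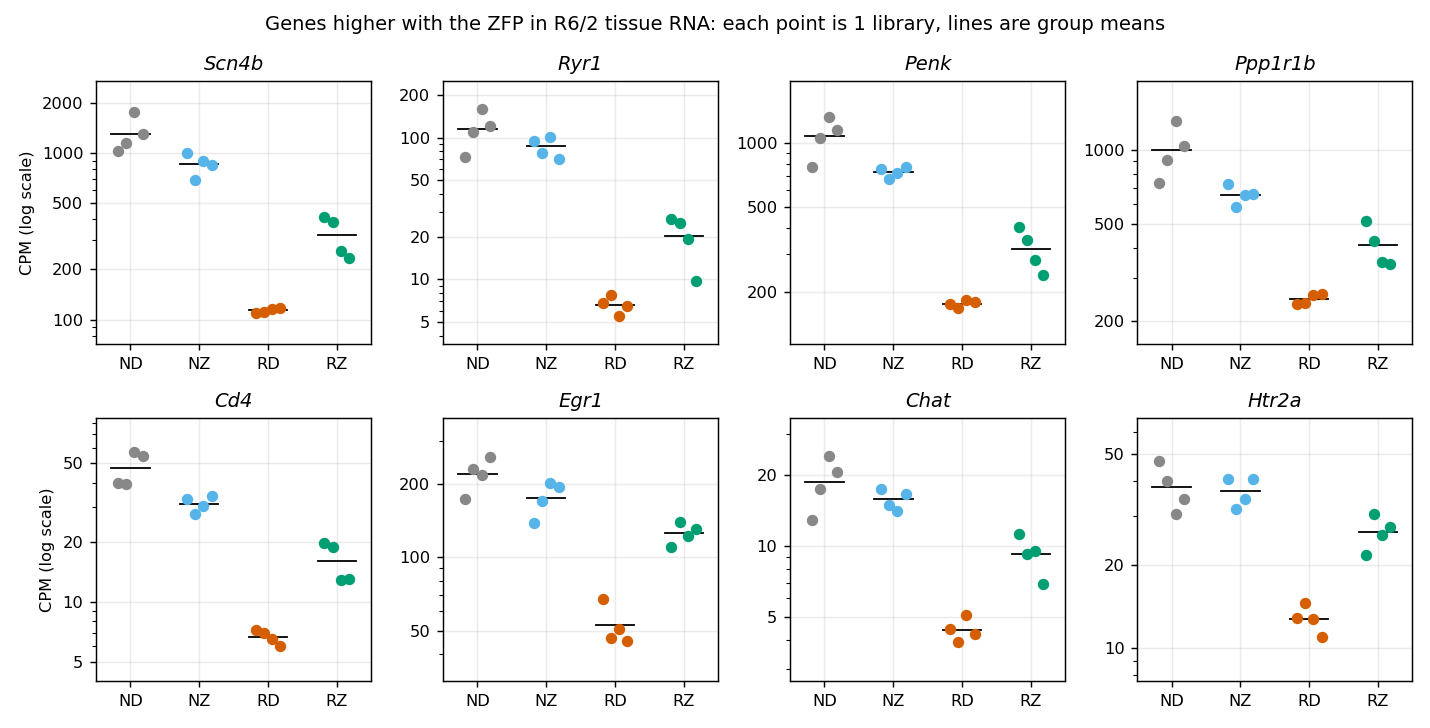
Levels of 8 genes in CPM (log axis) in the 16 Input libraries of the n_ZFP_n_Rpl set, 1 point per library, with the group mean as a line (ND and NZ are NCAR mice, RD and RZ are R6/2 mice, and Z marks the ZFP). In each panel the 4 RZ libraries lie above the 4 RD libraries, as for Scn4b at 235.0 to 413.7 CPM against 109.1 to 118.2 CPM, and the RZ mean lies below the ND libraries.

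Genes of cholinergic neurons were among the most raised. Of 15 interneuron markers 8 were higher, 0 were lower and 7 did not pass, with a median of 0.51, and 7 were still called after leaving out any 1 of the 8 libraries. Values were positive for 12 of the 15 markers, and the lowest was -0.46. Chat, the enzyme that makes acetylcholine, was at 4.453, 3.911, 5.088 and 4.224 CPM in RD and at 11.29, 9.295, 9.522 and 6.933 CPM in RZ. The groups were apart in every library, and Chat rose by 1.07 ± 0.18 (adjusted p = 0.00343). Slc5a7, the choline transporter, was at 11.13, 8.778, 11.24 and 9.363 CPM in RD and at 20.84, 20.89, 21.31 and 18.11 CPM in RZ, and rose by 1.00 ± 0.13 (adjusted p = 0.000491). Slc18a3, the vesicular acetylcholine transporter whose gene lies within Chat so that reads of both may be mixed, was at 0.81 ± 0.15 (adjusted p = 0.00611).

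Other markers of the interneuron list were called too. Th, tyrosine hydroxylase, was at 1.03 ± 0.18 (adjusted p = 0.0039), the nitric oxide synthase Nos1 at 0.56 ± 0.11 (adjusted p = 0.0096), somatostatin, Sst, at 0.54 ± 0.14 (adjusted p = 0.0465), the transcription factor Lhx6 at 0.51 ± 0.08 (adjusted p = 0.00146) and the receptor kinase Kit at 0.40 ± 0.08 (adjusted p = 0.00816). Lhx6 was at 18.25, 17.3, 18.68 and 15.54 CPM in RD and at 23.68, 24.16, 26.37 and 24.91 CPM in RZ, which lay within and around the ND range of 22.2 to 25.8 CPM. Parvalbumin, Pvalb, overlapped between the groups, at 17.68, 26.67, 21.67 and 26.76 CPM in RD and at 18.5, 23.22, 30.9 and 30.52 CPM in RZ (0.15 ± 0.22, adjusted p = 0.8). The summed level of the interneuron list was 294.7, 344.2, 317.9 and 316.3 CPM in RZ libraries 1 to 4 and 230.0 to 265.2 CPM in RD. The order of the RZ libraries gene by gene was not counted for this list.

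Further receptors and neuronal genes made up the rest of the 15 highest. Htr2a, the serotonin 2A receptor, was at 12.82, 14.52, 12.7 and 10.93 CPM in RD and at 21.6, 30.35, 25.5 and 27.2 CPM in RZ. Here RZ library 1 was the lowest of its group, and the rise was 1.04 ± 0.14 with no overlap (adjusted p = 0.000754). Oprk1, the kappa opioid receptor, was at 12.03, 11.96, 17.36 and 11.49 CPM in RD and at 30.42, 29.86, 27.93 and 18.79 CPM in RZ. RD library 3 stood above the other RD libraries and just below RZ library 4, and the change was 1.02 ± 0.16 (adjusted p = 0.00213). Cplx3, a complexin that acts on vesicle release, was at 4.616, 3.517, 3.985 and 4.047 CPM in RD and at 6.156, 9.23, 8.756 and 9.78 CPM in RZ, a rise of 1.07 ± 0.18 without overlap (adjusted p = 0.00324).

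Cd4, a T cell co-receptor gene, was at 7.223, 6.977, 6.547 and 5.996 CPM in RD and at 19.82, 18.95, 12.95 and 13.03 CPM in RZ. It rose by 1.27 ± 0.16 (adjusted p = 0.000607) and was at 39.2 to 56.8 CPM in ND. The tyrosine phosphatase Ptpn7 was at 1.30 ± 0.33 (adjusted p = 0.0479), the immediate early response-like gene Ier5l at 0.97 ± 0.13 (adjusted p = 0.000491) and the myosin Myo3b at 0.93 ± 0.22 (adjusted p = 0.028). The calls of Ptpn7 and Myo3b were lost without RD library 2, 3 or 4 and without RZ library 1 or 2, that of Ptpn7 also without RZ library 3 and that of Myo3b also without RD library 1. Over the 15 highest genes, RZ library 1 was the highest of its group for 10 and RZ library 4 the lowest for 10.

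Of 19 activity-regulated genes 2 were called higher, 0 were lower and 17 did not pass, with a median of 0.39 and positive values for 18. Egr1, an immediate early transcription factor, was at 67.58, 46.73, 50.84 and 45.34 CPM in RD and at 109.7, 139.6, 122.5 and 130.9 CPM in RZ. The groups were well apart, at a rise of 1.26 ± 0.15 (adjusted p = 0.000491), against 173.1 to 255.7 CPM in ND. Nptx2, a synaptic pentraxin, rose by 0.72 ± 0.17 (adjusted p = 0.0339), a call lost without RD library 2, 3 or 4 and without RZ library 2, 3 or 4. Egr2 had a larger but less certain value of 1.74 ± 0.54 (adjusted p = 0.103), and Fos, at 0.44 ± 0.39, and Arc, at 0.58 ± 0.27, were not called (adjusted p = 0.649 and 0.299). The cyclic AMP response element TGACGTCA, the same on both strands, was searched in the promoters of these genes, taken as 250 bases before to 50 bases after the RefSeq start. It was found in 2 of the 15 genes with an entry, Dusp1 and Btg2, which were not called, against 397 of 11604 for all genes tested (3.42%), 8 of 273 for the higher genes (2.93%) and 0 for the 15 highest and 15 lowest.

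General neuronal lists had lower medians and some calls, against 2.49% higher and 0.828% lower over all genes tested. Of 28 synaptic vesicle and release genes 5 were higher and 0 lower (median 0.16), namely Cplx3, the calcium sensor Syt2 (0.60 ± 0.12), the priming factor Unc13c (0.59 ± 0.11), Cplx2 (0.41 ± 0.08) and Syn3 (0.25). Of 33 potassium channel genes 6 were higher and 1 was lower (median 0.13), led by Kcng1 (0.52 ± 0.11), Kcnh3 (0.48 ± 0.07) and Kcnq5 (0.39 ± 0.06), with the small-conductance channel Kcnn3 lower at -0.55 ± 0.14 (adjusted p = 0.0408). The Kcnn3 call was lost when any 1 library other than RZ library 1 was left out. Of 35 glutamate and GABA receptor genes 4 were higher and 0 lower (median 0.14), namely Gabrd (0.41 ± 0.08), Grm3 (0.38 ± 0.06), Grm5 (0.30 ± 0.07) and Gria3 (0.27 ± 0.05), and without RZ library 4 the count was 7. The Grm5 call was lost under the replicate block and without any 1 library other than RZ library 4. Of 16 pan-neuronal markers only the enolase Eno2 was called, at 0.19 ± 0.05 (median 0.06), and its call was lost without 6 of the 8 libraries in turn. Their summed level overlapped between the groups, at 6384 to 7276 CPM in RD and 6535 to 7358 CPM in RZ.

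Lists of other cell types and of stress pathways had few calls or none, against 2.49% higher and 0.828% lower over all genes tested. At these shares a single call in a list is not read as a result about the list. No gene was called among 20 astrocyte, 16 microglia, 15 oligodendrocyte, 11 oligodendrocyte precursor, 14 endothelial and mural, 8 choroid plexus and 10 cortical excitatory markers. Each of these markers had reads, so that the tissue RNA held transcripts of all these cell types beside the labelled neurons. Summed astrocyte markers were 5363 to 5725 CPM in RD and 5415 to 6129 CPM in RZ, and summed oligodendrocyte markers 4606 to 6085 CPM and 5063 to 5952 CPM. The astrocyte marker Gfap was at 111.2, 112.1, 125.2 and 166.0 CPM in RD and at 127.3, 133.2, 128.0 and 104.3 CPM in RZ, with full overlap (-0.06 ± 0.19, adjusted p = 0.92). Also without a call were 28 astrocyte reactivity, 25 interferon response, 15 p53 target, 13 complement and antigen presentation, 35 oxidative phosphorylation and 36 ribosomal protein genes, a list that does not hold Rplp1, described below. DESeq2 called 1 p53 target higher and 1 ribosomal protein gene in each direction, and without RD library 1 the p53 targets had 2 calls. Of 22 cholesterol synthesis genes Pmvk was called at 0.19, of 9 polyglutamine disease genes Atxn1 was called at 0.24, and of 21 heat shock and chaperone genes Dnajc12 was lower. The Pmvk call was lost under 10 of the 13 alternatives, among them leaving out any 1 library but RZ library 2, and the Atxn1 call without RD library 3 or 4 or RZ library 1 or 2. In all, 14 of 28 lists had 0 genes called and 3 had a lower gene.

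**Figure D2:**
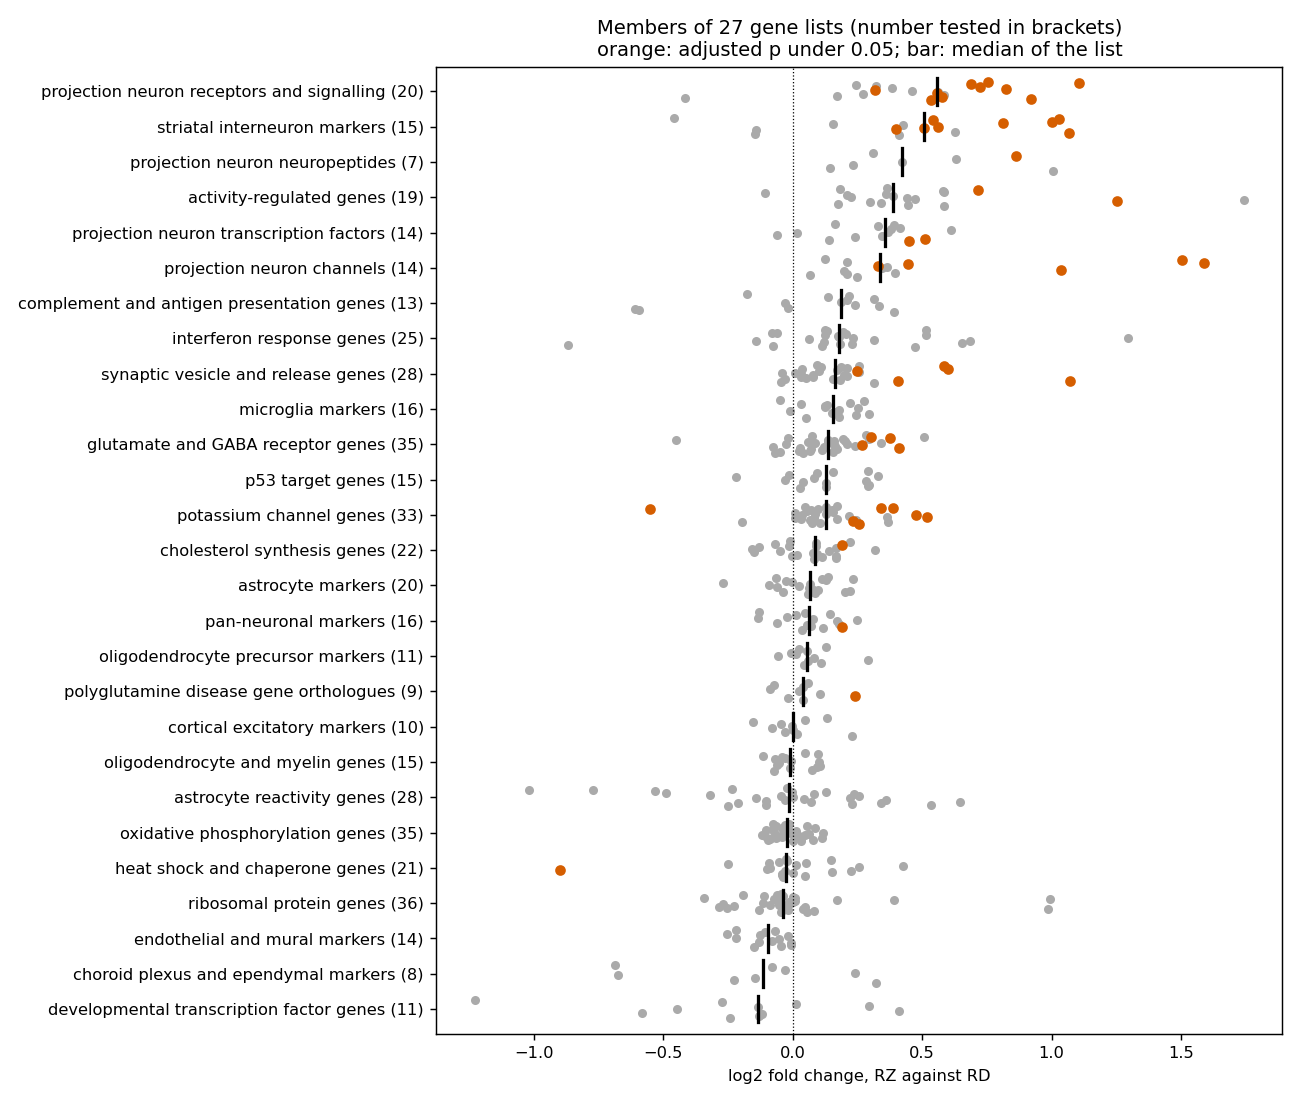
Log2 fold change of RZ against RD for each tested member of 27 gene lists (1 point per gene; number tested in brackets), with called genes in orange and the median of each list as a bar. The lists of projection neurons, interneurons and activity-regulated genes have the highest medians, 0.34 to 0.56, and the medians of the glial, vascular and choroid plexus lists lie between -0.11 and 0.16.

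Genes lower with the ZFP formed a different group. Tceal6, an X-linked elongation factor-like gene, was at 43.69, 43.44, 41.09 and 42.39 CPM in RD and at 25.02, 15.32, 19.08 and 19.13 CPM in RZ. All RZ libraries were far below the narrow RD range, with RZ library 1 the highest of them, and Tceal6 fell by 1.12 ± 0.12 on the log2 scale (adjusted p = 0.000236). Nap1l3 was at 67.04, 71.01, 66.71 and 64.63 CPM in RD and at 38.76, 31.28, 34.49 and 34.04 CPM in RZ, and Dach1, a transcriptional regulator, at 76.33, 75.31, 76.28 and 75.65 CPM and at 48.81, 24.55, 35.16 and 32.62 CPM. Neither gene overlapped between the groups, and they were at -0.96 ± 0.11 and -1.11 ± 0.20 (adjusted p = 0.000236 and 0.00738).

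Dnajc12, a J-domain co-chaperone, was at 14.01, 14.35, 15.01 and 14.24 CPM in RD and at 9.507, 6.412, 6.692 and 8.263 CPM in RZ, a change of -0.90 ± 0.12. Atp2b3, a plasma membrane calcium pump, was at 163.7, 173.8, 166.7 and 173.7 CPM in RD and at 103.3, 86.28, 93.55 and 104.2 CPM in RZ, at -0.81 ± 0.13. Rplp1, an acidic ribosomal protein gene, was at 237.5, 235.6, 228.2 and 250.3 CPM in RD and at 167.0, 141.2, 151.1 and 148.3 CPM in RZ, at -0.65 ± 0.07. For these 3 genes the highest RZ library was below the lowest RD library (adjusted p = 0.000491, 0.00397 and 0.000236). Impdh1, an enzyme of guanine nucleotide synthesis (-0.70 ± 0.10), the prolyl isomerase Fkbp3 (-0.63 ± 0.09), the testis bromodomain gene Brdt (-0.78 ± 0.11), Eid2b (-0.63 ± 0.09) and Mzt2 (-0.79 ± 0.10) were also among the 15 lowest. Reads of Tceal6 and Rplp1 may be shared with near-identical copies of these genes.

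Some of these genes were also lower with the ZFP in NCAR tissue RNA, which shares no library with RZ and RD. Of the 131 lower genes, 24 (18.3%) were also lower in NZ than in ND, where 2.33% of genes tested were lower, and these 24 were 6.5% of the 369 genes lower there. They lie on 14 chromosomes, and their medians were -0.58 in R6/2 and -0.63 in NCAR. Tceal6 was at -1.16 in NCAR, Dach1 at -1.72, Nap1l3 at -0.78, Dnajc12 at -0.77 and Rplp1 at -0.73. The 5 genes named for this direction in an earlier reading of these data, Tceal6, Nap1l3, Atp2b3, Dnajc12 and Impdh1, were all among the lower genes, which is not independent of that reading.

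**Figure D3:**
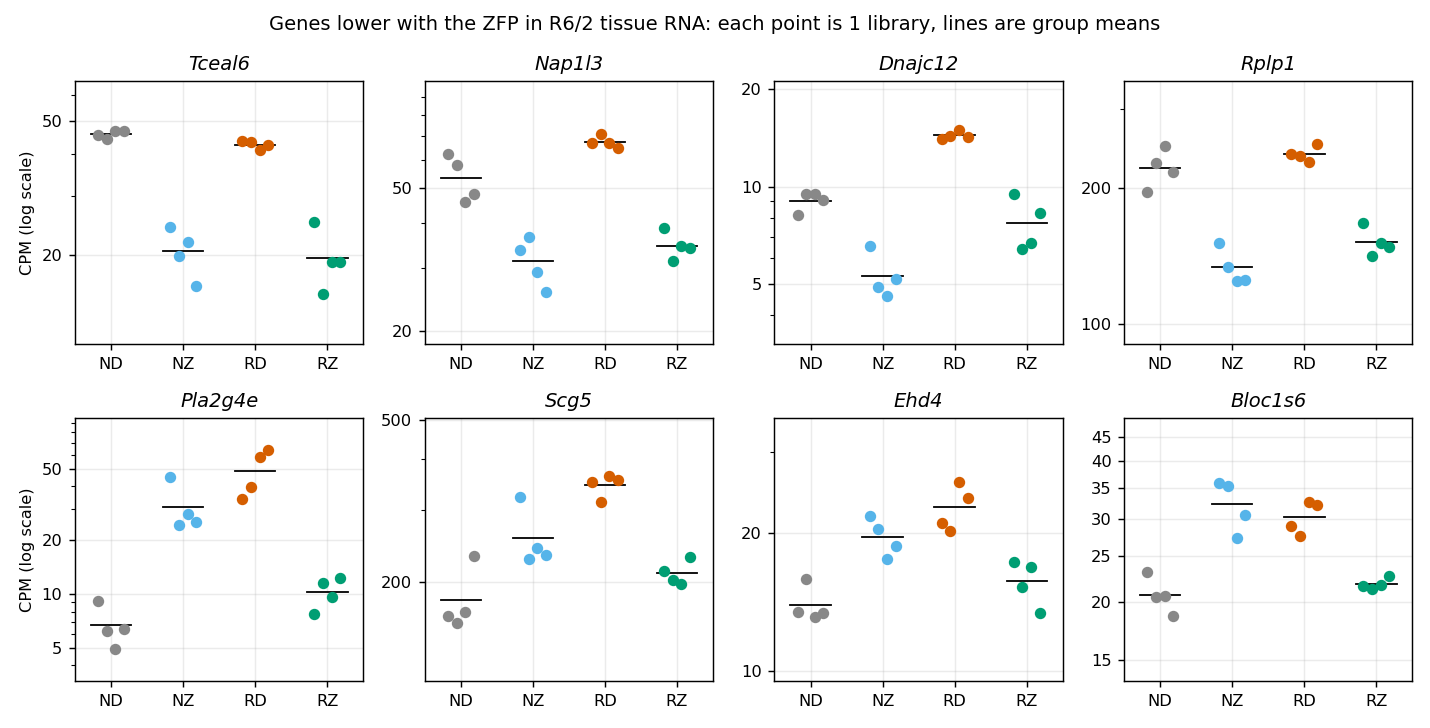
Levels of 8 genes in CPM (log axis) in the 16 Input libraries of the n_ZFP_n_Rpl set, 1 point per library, with group means as lines. Tceal6, Nap1l3, Dnajc12 and Rplp1 are lower with the ZFP in both genotypes, whereas Pla2g4e, Scg5, Ehd4 and Bloc1s6 are lower with it in R6/2 and higher with it in NCAR.

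Since the huntingtin mutation is a CAG repeat, promoters were searched for 3 units of it. The same promoter windows were used (GRCm38.p6), and CAGCAGCAG was searched on both strands, that is, as CTGCTGCTG too. It was found in 3 of the 9 of the 15 lowest genes that had an entry (33.3%), in 4 of 13 of the 24 genes lower in both genotypes (30.8%) and in 0 of 11 of the 15 highest. All 131 lower genes gave 5 of 91 (5.49%) and all 394 higher genes 7 of 273 (2.56%), against 278 of 11604 for all genes tested (2.4%). The stretches of the 4 genes lower in both genotypes are shown because they hold the repeat, in capitals, on the gene's strand. Positions count from the gene's start, and for Tceal6 and Impdh1 the match reaches the end of the window.
Tceal6: cccccgcgccagctagtcCTGCTGCTGCTG
Impdh1: cagcgtggcctcggtgcgcgtCAGCAGCAG
Fkbp3: gCAGCAGCAGgggaagatggcggcggctgt
Rsl24d1: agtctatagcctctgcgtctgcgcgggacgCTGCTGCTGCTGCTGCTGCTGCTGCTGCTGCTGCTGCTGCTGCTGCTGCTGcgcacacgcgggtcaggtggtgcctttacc
The Tceal6 stretch lies at chrX:135210638-135210667 on the minus strand and its match covers bases 39 to 50 after the start. The Impdh1 stretch is chr6:29212248-29212277 (minus strand, match at bases 42 to 50) and the Fkbp3 stretch chr12:65073909-65073938 (minus strand, match at bases 2 to 10). The Rsl24d1 stretch, chr9:73113263-73113373 on the plus strand, lies before the start and holds 17 units in a row from base -176 to base -126. Rsl24d1, a ribosome biogenesis gene named after its values were seen, was at 22.29, 22.28, 22.31 and 22.63 CPM in RD and at 17.37, 12.6, 15.45 and 14.92 CPM in RZ (-0.57 ± 0.09, adjusted p = 0.00167). A match is a description of the letters in this window.

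A further 10 lower genes had the opposite sign in NCAR, where they were called higher in NZ than in ND. These were Bloc1s6, Ccndbp1, Dtwd1, Ehd4, Eif2ak4, Ganc, Pced1a, Pla2g4e, Rhov and Scg5. Pla2g4e, a phospholipase A2 of the cytosolic type, had the largest decrease of all named genes. It was at 33.86, 39.42, 58.56 and 63.62 CPM in RD and at 7.759, 11.56, 9.655 and 12.26 CPM in RZ. The groups were wide apart, and the change was -2.24 ± 0.26 (adjusted p = 0.000471). In NCAR the order was the reverse, with 4.97 to 9.187 CPM in ND and 24.4 to 44.8 CPM in NZ (2.19, adjusted p = 0.00128).

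Scg5, a secretory granule chaperone, was at 352.5, 315.2, 364.0 and 356.0 CPM in RD and at 213.5, 202.3, 198.2 and 230.4 CPM in RZ. It fell by 0.72 ± 0.12 on the log2 scale without overlap (adjusted p = 0.00404), against a rise of 0.50 in NCAR (adjusted p = 0.0385). Bloc1s6, a subunit of a complex of lysosome-related organelles, was at 29.03, 27.68, 32.7 and 32.14 CPM in RD and at 21.6, 21.28, 21.74 and 22.65 CPM in RZ, at -0.48 ± 0.08 in R6/2 and 0.65 ± 0.09 in NCAR. Its 2 high groups were thus RD and NZ, and its 2 low groups RZ and ND, as for Pla2g4e.

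All 10 genes lie on chromosome 2, between the start of the first and the end of the last at chr2:113776313-130424641 (GRCm38.p6), an interval of 16.6 Mb. It holds 167 (1.12%) of the 14922 tested genes with a position. The interval was set after these genes were seen, so its 10 members are no evidence for it. With these 10 left out, it held 157 of 14912 genes with a position (1.05%), 8 of 114 lower genes (7.02%), 3 of 95 genes higher in NCAR (3.16%) and 18 of 176 genes with a negative interaction (10.2%), that is, a change that is more negative in R6/2 than in NCAR. In the IP of the n_ZFP_n_Rpl set, which is not independent of its Input, 8 of the 10 genes were lower in RZ, against 7.95% of all genes tested there. In the tissue RNA of the n_ZFP_a_Rpl set, made from other libraries, 0 of the 10 genes were called between RZ and RD, against 16.1% of all genes. Their median there was -0.18, against -0.48 in the n_ZFP_n_Rpl Input, and the difference between these Inputs was called for 0 of the 10. In the n_ZFP_a_Rpl Input Pla2g4e was at 6, 27.3 and 53.1 CPM in the 3 RD libraries and at 5.3, 5.62, 29.2 and 53.8 CPM in the 4 RZ libraries. The high and low levels of Pla2g4e thus did not follow the condition there. Without RD library 3, 6 of the 10 genes were still called in the n_ZFP_n_Rpl Input, and at least 7 without any 1 of the other libraries. What sets these levels was not tested.

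The ZFP was also compared between genotypes over all genes. In NCAR, 110 genes were higher (0.695%) and 369 lower (2.33%) in NZ than in ND, 3.03% of genes tested. The counts ranged from 24 higher and 131 lower without NZ library 2 to 395 and 875 without ND library 1. They were 25 and 135 without ND library 3, 46 and 186 without ND library 4, 47 and 195 without NZ library 3, and the lower count was 196 without NZ library 1. With only the ND and NZ libraries in the fit the counts were 6 and 31. The interaction, the R6/2 change less the NCAR change, called 791 genes (5%) with a more positive value in R6/2 and 190 (1.2%) with a more negative one, 6.2% in all. The latter count was 407 without ND library 1, 124 without RD library 4 and 111 without RZ library 2. Of the 394 genes higher in R6/2, the interaction called 296. It holds the RZ and RD libraries that chose these genes, so this count is partly built in. Of the 394 genes, 73 (18.5%) were lower with the ZFP in NCAR, 19.8% of the 369 genes lower there.

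Among the 15 highest genes, chosen by the same RZ and RD libraries, the interaction was called for all but Cplx3 (0.79, adjusted p = 0.0609). Scn4b differed by 2.11 between genotypes, with -0.61 in NCAR (adjusted p = 0.0982), and Egr1 by 1.58, with -0.32 in NCAR (adjusted p = 0.259). Of the 20 projection neuron receptors and signalling genes, 9 were lower in NCAR, among them Pde10a at -0.58 (adjusted p = 0.0476), Rgs9 at -0.67 (adjusted p = 0.0432) and Chrm4 at -0.54 (adjusted p = 0.00437). Whether these 9 calls hold without single libraries was not tested. The list's summed level was 13350, 15260, 20740 and 17520 CPM in ND libraries 1 to 4 and 9782 to 12120 CPM in NZ. Summed cortical excitatory markers were 2328, 2007, 1206 and 1468 CPM in ND libraries 1 to 4 and 1805 to 2240 CPM in NZ. Their part in the spread was not tested here either. Of the 15 interneuron markers 0 were called in NCAR in either direction. Genes higher with the ZFP in both genotypes numbered 11. They included the small Cajal body RNA Scarna2, at 0.91 ± 0.20 in R6/2 and 1.06 in NCAR, whose call in R6/2 was lost without RD library 4 or RZ library 2.

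**Figure D4:**
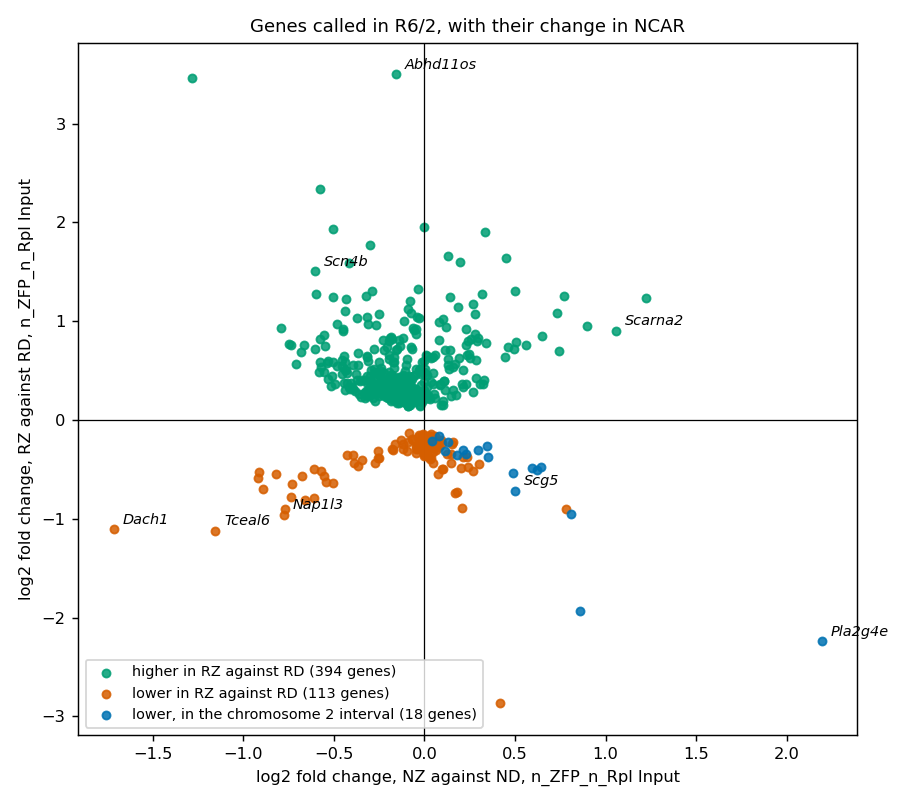
Log2 fold change of RZ against RD (R6/2, vertical axis) and of NZ against ND (NCAR, horizontal axis) for the 525 genes called in R6/2, 1 point per gene. The 18 lower genes of the chromosome 2 interval are in blue, and Pla2g4e lies at -2.24 in R6/2 and 2.19 in NCAR, while Tceal6 and Dach1 lie below 0 on both axes.

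The IP of the same set gave the same comparison for ribosome-bound RNA of the labelled neurons. It called 1432 of 15126 genes higher (9.47%) and 1203 lower (7.95%), the latter 773 without IP RZ library 2. Of the 393 higher Input genes tested there, 360 (91.6%) were higher in the IP, which is 25.3% of the genes higher in the IP, and of the 130 lower ones 114 (87.7%) were lower, 9.49% of those lower in the IP. None was called in the opposite direction. Libraries of both fractions that share a condition and a number deviated together from their group means, with correlations of 0.45 to 0.71 across genes over 16 pairs, so that the fractions are not independent.

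The difference of the RZ against RD change between Input and IP was called for 24 genes with a less negative or more positive value in the Input (0.148%) and for 17 with the reverse (0.105%). With the same-numbered IP and Input libraries kept together as a replicate block, these counts were 137 and 333, so that the share of the former went from 58.5% to 29.2%, and with another scaling (RLE) the 17 became 7, or 81.6% of the calls in the former direction. Without any 1 of the 16 libraries the second count was 7 to 12. Of the 24 genes lower in both genotypes, 20 were called, all with a larger decrease in the IP, where their median was -1.40 against -0.58 in the Input. Tceal6 was at 56.5 to 64.2 CPM in the RD libraries of the IP and at 9.57 to 9.99 CPM in its RZ libraries, a change of -2.63 that exceeded the Input's by 1.49. None of the 15 highest genes was called in the fit without the block, and Scn4b was at 1.65 in the IP. Whether any of these 15 was called with the block is not given here. Dhrs3, a retinal reductase, was at 1.35 in the IP and 0.09 in the Input (difference -1.28).

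The tissue RNA of the n_ZFP_a_Rpl set is the most like comparison in other libraries, with 3 RD and 4 RZ. It called 1751 of 15780 genes higher (11.1%) and 794 lower (5.03%), the latter 357 without its RD library 2 and 453 without its RD library 3. Of 393 genes higher in the n_ZFP_n_Rpl Input, 351 (89.3%) were higher there too, 20.2% of the genes higher there, and of 129 lower genes 78 (60.5%) were lower, 9.84% of the genes lower there. None went the opposite way. Among the 15 highest genes all but Cplx3 (0.20, adjusted p = 0.566) were called higher, with Scn4b at 1.77, Egr1 at 2.22 and Chat at 1.01. All 24 genes lower in both genotypes were lower there, at a median of -0.95.

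The difference between the 2 Inputs was called for 0 genes with a higher value in the n_ZFP_n_Rpl Input and 5 with a lower one (0.0308%). These were the histamine receptor Hrh3 at -0.76, the sodium-calcium exchanger Slc8a2 at -0.49, the channel Kcnq3 at -0.41, Rab15 at -0.37 and Parp6 at -0.35, each with an adjusted p of 0.0453. Hrh3 was at 0.84 ± 0.10 in the n_ZFP_n_Rpl Input and 1.60 in the n_ZFP_a_Rpl Input. The count of 5 was 0 without RD library 2, RZ library 3 or RZ library 4 of the n_ZFP_n_Rpl Input and without RD library 2, RD library 3 or RZ library 2 of the n_ZFP_a_Rpl Input. It was 1 to 3 without RD library 1 or 3 or RZ library 1 of the former or RZ library 1 or 3 of the latter, 9 without RD library 1 of the latter, and 0 with RLE scaling. In the Input of the hSyn set, with 3 RD and 4 RZ libraries, 0 of 16090 genes were called by edgeR's quasi-likelihood test, 628 had an unadjusted p under 0.05, and DESeq2 called 3 higher and 2 lower. There Scn4b was at 140 to 149 CPM in RD and 146 to 167 CPM in RZ, with overlap. The difference of the hSyn Input from the others was not tested.

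The R6/2 change itself was set beside these values in libraries that RZ and RD do not share. In the n_ZFP_a_Rpl Input, RD differed from ND in 49.1% of genes tested, with 24.7% lower. Of 393 genes higher with the ZFP in the n_ZFP_n_Rpl Input, 364 (92.6%) were lower in RD than in ND there, which is 9.44% of the genes lower there, and 1 was higher. Of 129 genes lower with the ZFP, 84 (65.1%) were higher in RD than in ND there, where 24.4% of all genes were, and 11 (8.53%) were lower. Within the n_ZFP_n_Rpl Input the RD libraries enter both comparisons, so only the values of each are given. RD against ND called 26.1% of genes higher and 23.7% lower (49.8% in all), and RZ against ND 20.1% and 18.4% (38.5%). For Scn4b, RD was at -3.52 ± 0.21 against ND and RZ at -2.02 ± 0.20 against ND. For Ppp1r1b these values were -2.01 and -1.29, for Chat -2.10 and -1.03, for Egr1 -2.06 and -0.80, and for Htr2a -1.58 and -0.54. All 15 highest genes had a mean RZ level below the lowest ND library, while Per2, a clock gene named after its values were seen, was at 54.6 to 60.0 CPM in RZ and 59.5 to 62.7 CPM in ND.

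**Figure D5:**
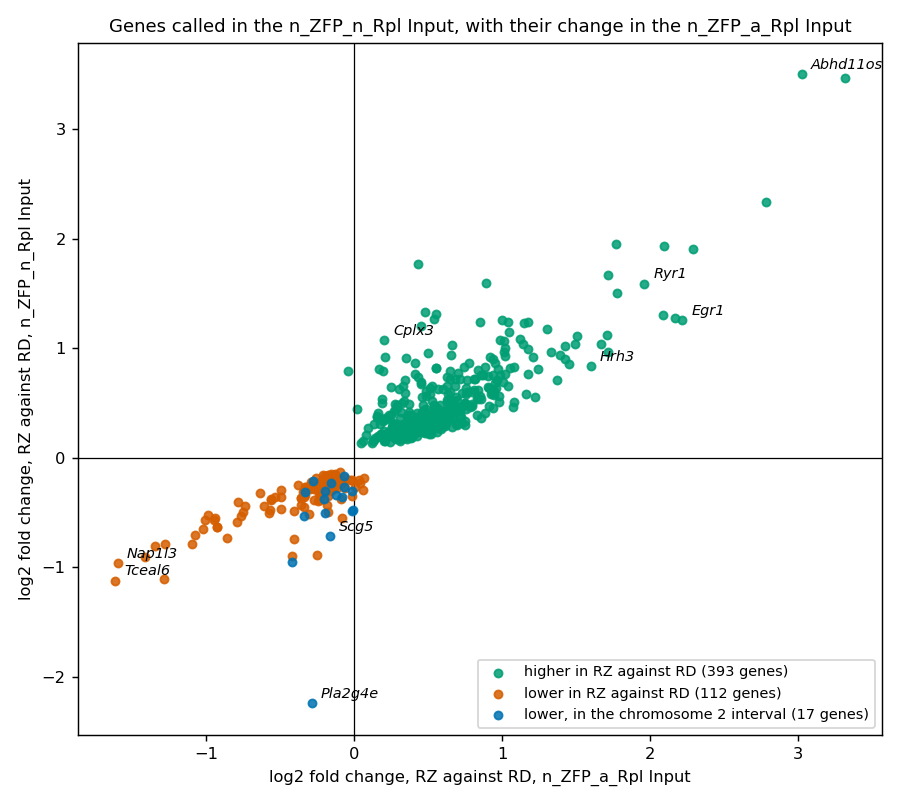
Log2 fold change of RZ against RD in the n_ZFP_n_Rpl Input (vertical axis) and in the n_ZFP_a_Rpl Input (horizontal axis) for the genes called in the former, 1 point per gene. Scn4b and Egr1 lie above 1.2 in both, and Pla2g4e lies at -2.24 on the vertical and -0.29 on the horizontal axis.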

How the data were processed

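RNA-seq libraries of the Input fraction of the n_ZFP_n_Rpl set were analysed, 4 in each of 4 conditions. The authors deposited 1 table of raw read counts per gene for 110 libraries, and per the submitters' processing notes STAR, HTSeq and mm10 were used, with versions not given in the sources used here. Counting by strand is not given either, so reads of overlapping antisense genes may be mixed. Of 24060 gene symbols 24056 were used, leaving out 4 that were repeated.

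The 16 libraries were fitted together with edgeR 4.0.16 (limma 3.58.1, R 4.3.3) by the robust quasi-likelihood test, after filterByExpr (minimum count 10, minimum total 15) and TMM scaling, with Benjamini-Hochberg adjustment and calls at 0.05. Standard errors are the log2 fold change divided by the square root of F. The IP, the n_ZFP_a_Rpl Input and the hSyn Input were fitted separately, and the 2 differences between sets or fractions in joint fits. Genes were named by rule: the 15 highest and 15 lowest called genes with a mean of at least 5 CPM and no overlap between RZ and RD, the 3 of each list and direction with the largest change, and a few fixed genes. Other list members, and genes outside these, were named after their values were seen, and 1 gene that the rule names is not reported here. The members and lists were chosen with earlier results of these data known.

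Replicate numbers of RD and RZ did not pair the libraries (correlations of deviations -0.034 to 0.112), nor did those of ND and NZ in every pair (0.01855 to 0.3372, above 0.1 in 3 of 4). Those of the IP and the Input within a condition did (0.4515 to 0.7099), which comes from the data and not from the labels. None of 120 library pairs was identical. Sampling error of counts is small at this depth for genes with many reads, so there the 4 libraries per group limit the precision. For genes with few reads, such as Abhd11os and Fst, sampling error adds to it. On simulated counts for RZ against RD (15714 genes), 63.3% of genes changed by 0.5 on the log2 scale, 85.7% of those changed by 1 and 100% of those changed by 2 were recovered, with 7 false calls. These counts were drawn for each gene separately, without shifts shared by the genes of a library and without differences between the other conditions. The real libraries hold both, so these shares and the number of false calls may not carry over to them. Alternatives were RLE scaling, no filter, DESeq2 1.42.0, a block for the replicate number, a fit without the other groups, and leaving out each library.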

Additional observations from a re-analysis of the deposited data

Results flagged for a closer look

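In 10 of 154 gene-and-group pairs, 1 of the 4 libraries lay apart from the other 3 by Dixon's test, and chance gives about 1 in 20. In RD, library 1 stood high for Ptpn7 (3.53 CPM), Pde10a (509.6 CPM) and Nptx2 (15.37 CPM), library 3 high for Oprk1 (17.36 CPM) and library 4 low for Scarna2 (7.798 CPM). In RZ, library 4 stood low for Slc5a7 (18.11 CPM) and Grm3 (134.5 CPM), library 3 high for the collagen gene Col5a2 (8.756 CPM), and library 2 high for Dhrs3 (13.86 CPM) and the lactate dehydrogenase gene Ldhd (4.761 CPM).

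The RZ against RD change differed from the NZ against ND change by the interaction test for 14 of the 15 highest genes. These genes were chosen by the RZ and RD libraries that enter this test, so the count is partly built in. Among these, the difference on the log2 scale was 2.11 for Scn4b, 2.00 for Ryr1, 1.87 for Cd4, 1.73 for Myo3b, 1.59 for Ptpn7, 1.58 for Egr1, 1.55 for Rasgrp2, 1.41 for Kcnh4, 1.32 for Chat, 1.28 for Ier5l, 1.12 for Slc5a7, 1.08 for Htr2a and 0.92 for Oprk1. Of the 15 lowest the interaction was called for 4, at -4.43 for Pla2g4e, -1.22 for Scg5, -1.10 for the lysophospholipase-like gene Lyplal1 and -0.91 for Tpx2, a spindle assembly factor. Pla2g4e and Scg5 lie in the chromosome 2 interval, and in the n_ZFP_a_Rpl Input the levels of Pla2g4e did not follow the condition. Whether the ZFP sets the levels of these genes was not tested.

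The decrease of 10 of the 15 lowest genes differed between the Input and the IP. The Input value was less negative by 1.56 for Mzt2, 1.49 for Tceal6, 1.36 for Nap1l3, 1.33 for Dnajc12, 1.07 for Atp2b3, 1.07 for Brdt, 1.03 for Impdh1, 0.85 for Eid2b, 0.73 for Rplp1 and 0.72 for Fkbp3. Between the n_ZFP_n_Rpl and n_ZFP_a_Rpl Inputs, the change in the former less that in the latter was -0.76 for Hrh3, -0.49 for Slc8a2, -0.41 for Kcnq3, -0.37 for Rab15 and -0.35 for Parp6.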

How the results depend on the processing

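No called gene among those named changed direction under any alternative run, and Gfap, Dhrs3 and Col5a2, which were not called, changed sign under some. Of the 525 genes called between RZ and RD, 522 were shared with RLE scaling, 436 with no filter, 518 with DESeq2, 477 with only the 2 groups in the fit and 378 with a replicate block, which gave 308 higher and 97 lower. DESeq2 called 650 higher and 229 lower, and the fit of only the 2 groups 213 lower. For NZ against ND, DESeq2 called 274 higher and 827 lower, the replicate block 63 and 224, and the fit of only the 2 groups 6 and 31. In the hSyn Input DESeq2 called 3 higher and 2 lower, and the fit of only the 2 groups 1 higher. For Input less IP, RLE gave 7 lower, DESeq2 71 higher, and the replicate block 137 higher and 333 lower. Between the 2 Inputs, RLE gave 0 lower, no filter 2 lower, DESeq2 6 higher and 32 lower, and the replicate block 1 higher. The causes were not tested.

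Leaving out each library in turn, higher and lower calls ranged over 171 to 394 and 45 to 122 for RZ against RD, 24 to 395 and 131 to 875 for NZ against ND, 3545 to 3990 and 3396 to 3868 for RD against ND, and 2388 to 2909 and 2538 to 3109 for RZ against ND. They were 541 to 1102 and 111 to 407 for the interaction, 1001 to 1301 and 773 to 1010 for the IP, and 1320 to 1687 and 357 to 651 for the n_ZFP_a_Rpl Input (RD against ND there 3260 to 3638 and 3488 to 3742). They were 0 to 1 and 0 in the hSyn Input (1 without its RD library 1), 24 to 36 and 7 to 12 for Input less IP, and 0 to 1 and 0 to 9 between the 2 Inputs.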

Other observations

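Further gene groups were looked at after their members had been seen among the called genes, so their counts are descriptions. Over all genes tested 2.49% were higher and 0.828% lower. Of 16 circadian clock genes 9 were higher in RZ than in RD, 0 were lower and 7 did not pass, with a median of 0.27. The period gene Per2 was at 40.35, 36.57, 35.79 and 33.82 CPM in RD and at 54.57, 59.98, 59.93 and 56.95 CPM in RZ, a rise of 0.66 ± 0.07 (adjusted p = 0.000236). The groups were well apart. Per1 rose by 0.57 ± 0.07 (adjusted p = 0.000443), Ciart by 0.65, Dbp by 0.52, Per3 by 0.43, Hlf by 0.41, Bhlhe41 by 0.38, Npas2 by 0.30 and Cry2 by 0.21, while the activator Arntl was at -0.20 (adjusted p = 0.138). The labels used here give no time of day. In NCAR only Per1 was called among the 16, at -0.71.

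Of 9 other genes of cholinergic neurons 5 were higher and 0 lower (median 0.83), namely the transcription factor Gbx1 (1.24), the neurotrophin receptor Ngfr (0.83), the vesicular glutamate transporter Slc17a8 (0.83), Slc10a4 (0.83) and the substance P receptor Tacr1 (0.81). The count was 2 without RD library 2 or RZ library 3 and 3 without RD library 3, RD library 4 or RZ library 2. Of 12 serotonin receptor genes Htr2a (1.04), Htr1b (0.75) and Htr4 (0.74) were higher and 0 were lower (median 0.34), with 1 called without RZ library 2. Of 20 mitosis genes 5 were lower and 0 higher (median -0.35), namely Wdr62 (-0.74), Tpx2 (-0.73), Sgol2 (-0.55), Cenpe (-0.49) and Mastl (-0.48), with 1 called without RD library 4 and 2 without RD library 2 or RZ library 2.

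Among genes with few reads, Abhd11os, a non-coding RNA, was at 0.2715, 0.1969, 0.07116 and 0.2068 CPM in RD and at 2.623, 2.818, 1.864 and 1.609 CPM in RZ (3.50 ± 0.38, adjusted p = 0.000236), and at 4.476 to 11.37 CPM in ND. Fst, the activin-binding protein follistatin, was at 0.6788, 0.1969, 0.6049 and 0.4726 CPM in RD and at 1.712, 1.943, 1.498 and 2.136 CPM in RZ (1.90 ± 0.31, adjusted p = 0.00262). Neither gene overlapped between the groups.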
